A study of Mus musculus with 6 samples.

Results

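Axin2 and 9 related genes of the canonical Wnt response were followed in epidermal stem cells sorted from denervated and from normally innervated back skin of the same mice. The 10 genes, Axin1, Axin2, Nkd1, Nkd2, Lef1, Tcf7, Sp5, Apcdd1, Notum and Ctnnb1, were found by symbol among the 24982 rows of the count matrix, and each had 1 row. They were chosen by name with the lower Axin2 level on the denervated side already known from these libraries. The fold changes of the 10 genes between the sides, with their adjusted p-values, are therefore descriptions and support nothing. A minimum on low counts kept 6 of the 10 genes among the 12310 tested, and Nkd1, Lef1, Notum and Sp5 did not pass it.

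Poly(A) RNA was sequenced in 6 libraries, 3 from the denervated left and 3 from the normal right side of animals 890, 892 and 899. All animals carried Lgr6-EGFP-Ires-CreERT2 together with the reporter R26loxP-stop-loxP-tdTom, in which tamoxifen turns on a red reporter in cells that express Lgr6, an R-spondin receptor, and in their descendants. Each received 20 µg of tamoxifen on postnatal day 42. Surgery under ketamine and xylazine removed the cutaneous nerves T3 to T12 on the left and left those on the right in place, meloxicam was given afterwards, and the mice were housed singly. Both sides were sampled 4 weeks after surgery and sorted for the reporter and for Itga6 (CD49f), an integrin of basal keratinocytes, and the series' design adds Lgr6-GFP to the sort. No dissection of the right side is described, so effects of nerve loss, of surgery and of left against right cannot be told apart, and the labels give no age at surgery or sampling.

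Canonical Wnt signalling turns on the amount of beta-catenin. Without a Wnt ligand, a complex built on the scaffold Axin marks beta-catenin for degradation, and with a ligand beta-catenin persists and acts in the nucleus with the DNA-binding proteins of the TCF/LEF family. Several of the genes switched on in this way, Axin2 among them, encode inhibitors that act back on the pathway. In skin this pathway is known for its part in hair follicle formation and growth and in the upkeep of basal keratinocytes.

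Defining markers of basal keratinocytes were abundant, with Krt5 between 17657 and 21767 CPM (counts scaled to library size with TMM factors) and Trp63 between 1081 and 1231 CPM over the 6 libraries, and none of the 7 markers checked passed the test. The 7 include Itga6 and Lgr6, on which the sort rested, and these are no independent check. Libraries held between 9610071 counts (denervated, animal 890) and 26167593 counts (normal, animal 890). The denervated library of animal 890 had the highest score, 37.6, on principal component 1 (36.5% of the variance of log2 CPM), and the normal library of that animal came next at 9.73. The floor of 3 counts corresponded to 0.113 to 0.323 CPM, for counting error only.

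Upstream sequence is shown for Axin2, whose level differed most between the sides among the tested members, and for Sp5, a member without a single read. Each is the 250 bases before the RefSeq start site in GRCm38.p6, both on the plus strand, with matches to a TCF/LEF core word in capitals. The words searched on both strands were CTTTGAA as well as its variants CTTTGAT next to CTTTGTA and lastly CTTTGTT, which differ only in their last bases, and no other motif was searched. Axin2 lies on chromosome 11 (GENCODE gene from 108920349 to 108950783), with the sequence at chr11:108920099-108920348. Sp5 lies on chromosome 2 (70474923 to 70477729), with the sequence at chr2:70474673-70474922.
Axin2: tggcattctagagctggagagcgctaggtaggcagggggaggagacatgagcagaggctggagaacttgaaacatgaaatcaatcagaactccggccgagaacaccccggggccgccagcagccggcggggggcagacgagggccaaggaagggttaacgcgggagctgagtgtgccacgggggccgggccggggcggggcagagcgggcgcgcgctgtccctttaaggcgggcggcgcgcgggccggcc
Sp5: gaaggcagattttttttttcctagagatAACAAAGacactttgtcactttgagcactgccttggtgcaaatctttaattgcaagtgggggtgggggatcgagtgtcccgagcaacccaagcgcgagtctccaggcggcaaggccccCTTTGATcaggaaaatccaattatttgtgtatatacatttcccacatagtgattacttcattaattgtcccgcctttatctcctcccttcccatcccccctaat
The Sp5 sequence held a match on the minus strand starting at position −222 and one on the plus strand starting at position −104 from the start site. The Axin2 sequence held none, which says only that these letters are not in this window. Of 7 members whose windows were used (250 bases before to 50 after a start site), Sp5 and Lef1 held a match, Lef1 in 1 of its 4 windows. Counted by window, 2 of the 12 windows of these members held a match. Among all 32851 windows 16.9% held one. Among the 12332 windows of tested genes, which do not include Sp5 and Lef1, 11.6% did.

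Per transcript length, Ctnnb1, which encodes beta-catenin, was the most abundant of the 10 genes. Its TPM, the authors' length-scaled estimate, was 380, 393 and 398 in the denervated and 361, 362 and 395 in the normal libraries of animals 890, 892 and 899. Apcdd1, a membrane inhibitor of Wnt signalling, and Axin1, the constitutive scaffold, came next, between 58.2 and 77.3 TPM and between 44.9 and 85.2 TPM. The ranges of Apcdd1 and Axin1 overlapped, so their order is not beyond the spread over libraries. Axin2, the inducible scaffold, followed at 18.2 to 39.6 TPM, below Axin1 and above Tcf7 in every library. Tcf7, a TCF/LEF factor, stood between 12.6 and 17.3 TPM. Nkd2, which encodes an inhibitor that binds Dishevelled, stood between 0.491 and 1.51 TPM. Lef1, Nkd1 and Notum did not exceed 0.201 TPM in any library, and their ranges overlapped.

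**Figure D1:**
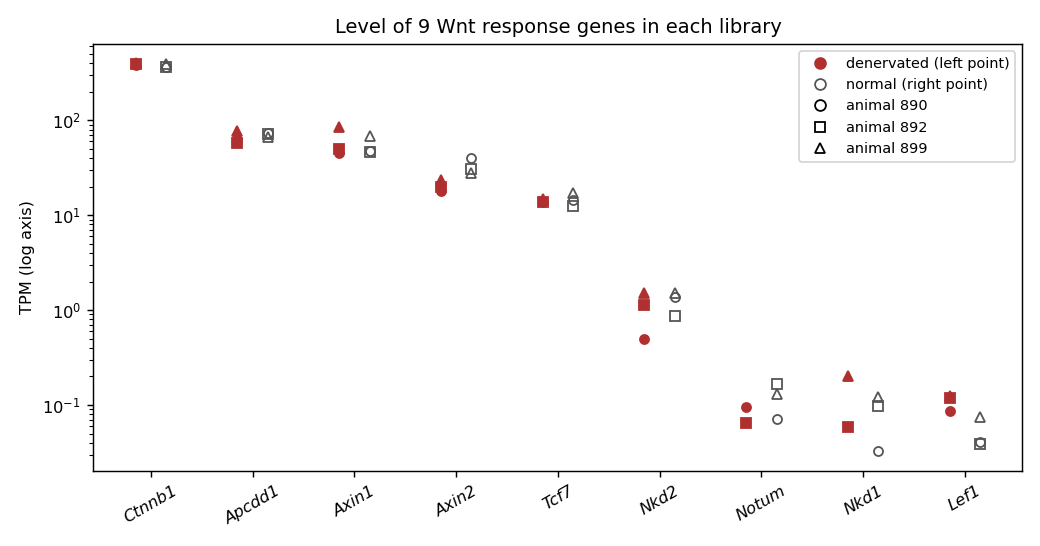
TPM on a log axis of the 9 genes with reads, ordered by their mean, in each denervated library (filled, left) and normal library (open, right), with the marker shape giving the animal. Values listed at 0 (Nkd1 in the denervated library of animal 890, Notum in that of animal 899) and Sp5 are not drawn, and Axin2 is the one gene with a mean above 1 TPM whose denervated points lie below all normal points.

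The members near or below detection were these. Lef1, the TCF/LEF factor best known from the hair matrix, had 1, 2 and 3 counts in the denervated and 2, 1 and 2 counts in the normal libraries, in the order of animals 890, 892 and 899. Nkd1, the relative of Nkd2, had 0, 2 and 6 counts in the denervated and 2, 9 and 4 in the normal libraries. Notum, which encodes an enzyme that inactivates Wnt ligands, had 1, 3 and 0 counts in the denervated and 2, 4 and 4 in the normal libraries. In these 3 genes the counts of both sides overlapped and lay near the floor, so a difference was not detectable at this depth. The TPM of Lef1 did not overlap (0.0865 to 0.126 in denervated and 0.0387 to 0.0755 in normal libraries), but each value rests on 1 to 3 counts and on a length listed as 2305 or 3532 bases. Sp5, a transcription factor gene described as a Wnt target, had 0 counts in every library, which over the 97557937 counts of the 6 libraries allows up to 0.0308 CPM.

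Axin2 was lower on the denervated side, at 49.5, 52.7 and 58.3 CPM in the denervated libraries of animals 890, 892 and 899, against 99.7, 81.4 and 71.5 CPM in the normal ones. The highest denervated value lay below the lowest normal value, and the normal libraries spread more (84.2 ± 14.3 CPM) than the denervated ones, which averaged 53.5 ± 4.46 CPM (SD, n = 3 each). In edgeR's quasi-likelihood test with the animal as block, its log2 fold change of denervated over normal was −0.64 ± 0.11 SE (adjusted p = 0.0103). It was the one member of 6 tested below an adjusted p of 0.05, where 426 of 12310 genes, or 3.46%, were called, 2.88% as higher and 0.577% as lower. Whether fewer cells held Axin2 mRNA or each cell held less cannot be told apart in sorted bulk samples.

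The size of the Axin2 difference varied with the animal, and so did several features of the libraries. On the log2 scale, denervated minus normal was −1.01 for animal 890, −0.63 for animal 892 and −0.29 for animal 899. The total counts of the denervated library were 0.367, 0.677 and 0.959 of those of the normal library in the same animals. The part of depth and of that library in the result was not tested, but without animal 890 the log2 fold change of Axin2 was −0.46 (adjusted p = 0.00107, edgeR) and without animal 899 it was −0.81. Without the animal as block, edgeR gave Axin2 an adjusted p of 0.146 at a log2 fold change of −0.66 and called 0 of 12310 genes, with 1537 at an unadjusted p below 0.05, while DESeq2 without the block called 365. The call was kept under the other alternatives on counts, in which the share of genes called differed. Without animal 890, 892 or 899, 3.11%, 2.01% or 7.74% of genes were called. Scaled by library totals the share was 2.36%, and with DESeq2's size factors 3.83%. With no filter on low counts it was 5.7%, with a stricter filter 4.39% and on estimated counts 3.2%. DESeq2 called 7.91% of the genes to which it gave an adjusted p with the block and 6.19% without it. In limma on log2(TPM + 1) and on log2(TPM + 0.1) the share was 0.00843%, and Axin2 did not pass (adjusted p = 0.154 and 0.148). In the authors' deposited table, Axin2 had a log2 fold change of −0.63 with an adjusted p of 0.000552.

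**Figure D2:**
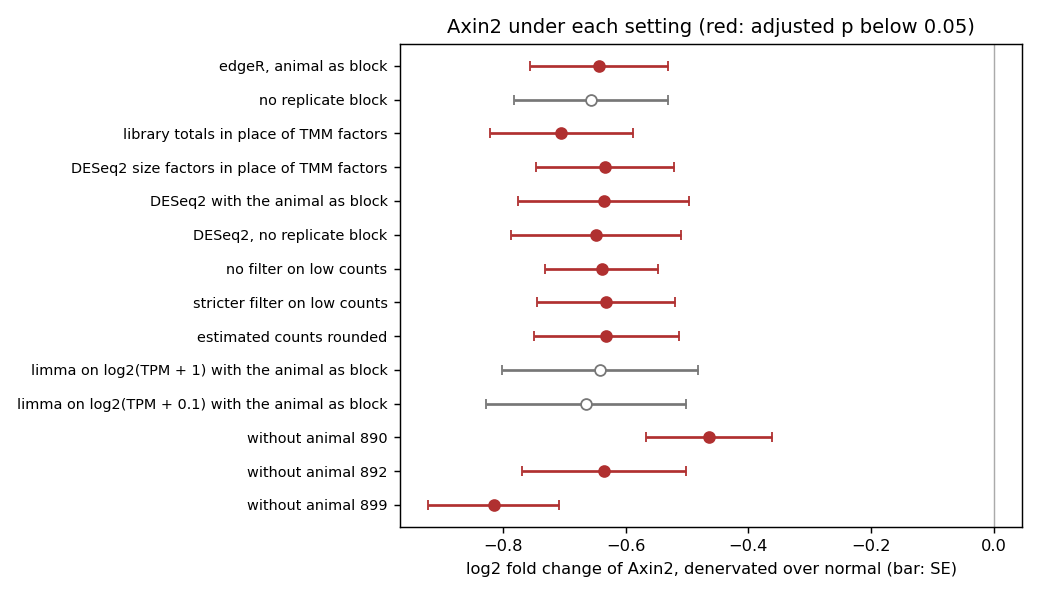
Log2 fold change of Axin2, denervated over normal, with its SE as bar, under each way of processing. Values run from −0.81 (without animal 899) to −0.46 (without animal 890), and the 3 open points are the fits in which the adjusted p was not below 0.05.

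The other tested members did not pass the test. Axin1, the scaffold that is not known as a Wnt target, had 99.3, 107 and 171 CPM in the denervated and 96.4, 99.9 and 142 CPM in the normal libraries of animals 890, 892 and 899. The sides of Axin1 overlapped, and animal 899 was high on both (log2 fold change 0.14 ± 0.08 SE, adjusted p = 0.366, edgeR). Ctnnb1 had 777, 789 and 746 CPM in the denervated and 685, 714 and 770 CPM in the normal libraries, with overlapping sides (log2 fold change 0.09 ± 0.08 SE, adjusted p = 0.596, edgeR). Its exons overlap those of Ulk4 on the opposite strand in GENCODE, which had between 20 and 95 counts a library against 7227 or more for Ctnnb1.

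Among the transcription partners, Tcf7 had 22.3, 22.4 and 21.4 CPM in the denervated and 21.2, 20.2 and 25.8 CPM in the normal libraries. The denervated values of Tcf7 lay within the range of the normal ones (log2 fold change −0.01 ± 0.12 SE, adjusted p = 0.965, edgeR). Among the inhibitors, Apcdd1 had 123, 114 and 140 CPM in the denervated and 135, 138 and 125 CPM in the normal libraries, lower in animals 890 and 892 and higher in animal 899 (log2 fold change −0.08 ± 0.09 SE, adjusted p = 0.681, edgeR). Nkd2 had 14, 37 and 47 counts in the denervated and 84, 44 and 50 counts in the normal libraries, or 1.51, 2.69 and 3.60 CPM against 3.15, 2.06 and 3.57 CPM. Denervated minus normal on the log2 scale was −1.01 for animal 890, 0.37 for 892 and 0.01 for 899 in Nkd2, so that its negative fold change of −0.17 ± 0.34 SE (adjusted p = 0.832, edgeR) rests on animal 890 and was 0.19 without it. A p that misses the threshold does not show that these genes were alike on both sides.

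**Figure D3:**
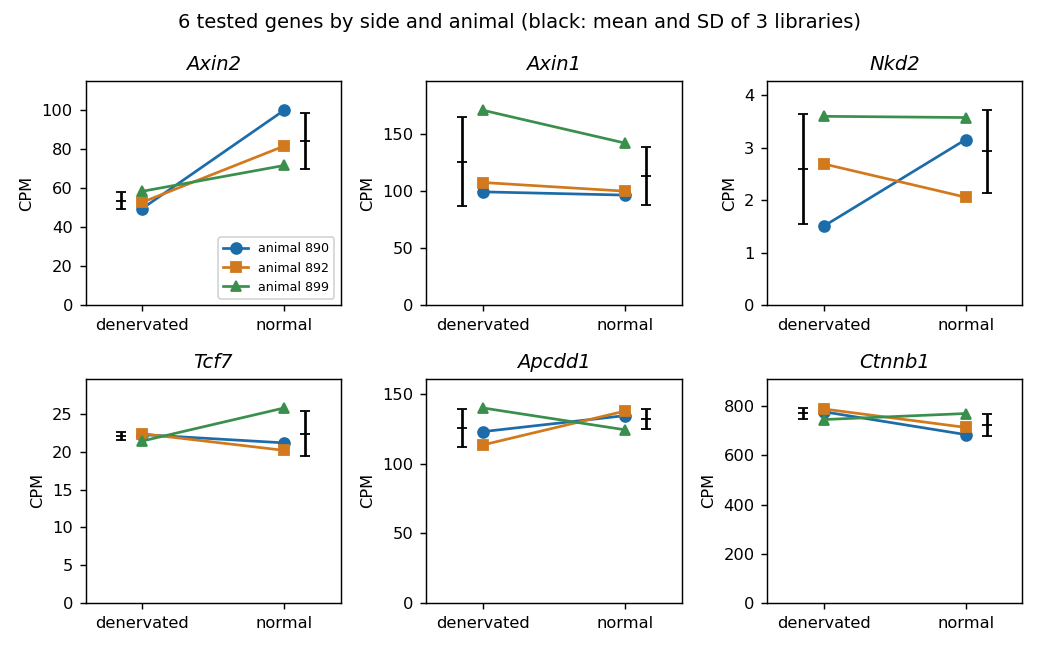
CPM of the 6 tested genes in the denervated (left) and normal (right) library of each animal, joined by a line, with the mean and SD of 3 libraries in black. Axin2 is lower on the denervated side in each animal, Axin1 is higher there in each animal with overlapping sides, and the other 4 genes differ in direction between animals.

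Of the 6 tested members, 4 had a negative and 2 a positive log2 fold change, with a median of −0.05 against −0.02 over all tested genes. Axin2 was also the one member whose sides did not overlap, a pattern that 9.21% of all tested genes showed in the lower direction.

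Ratios within a library do not depend on how libraries are scaled. There were 0.498, 0.490 and 0.341 Axin2 counts per Axin1 count in the denervated libraries of animals 890, 892 and 899, against 1.03, 0.815 and 0.504 in the normal ones. The sides did not overlap, although the highest denervated and the lowest normal value lay close together. Per Ctnnb1 count there were 0.0637, 0.0668 and 0.0782 Axin2 counts in the denervated and 0.146, 0.114 and 0.0928 in the normal libraries, again with no overlap. Against Apcdd1 the ratio was 0.401, 0.463 and 0.415 in the denervated and 0.740, 0.590 and 0.574 in the normal libraries. Against Tcf7 it was 2.22, 2.35 and 2.72 in the denervated and 4.71, 4.03 and 2.77 in the normal libraries, so that animal 899 was nearly level there. The mean log2 difference of the ratio over 3 animals was −0.78 ± 0.25 against Axin1, −0.74 ± 0.47 against Ctnnb1, −0.57 ± 0.28 against Apcdd1 and −0.63 ± 0.54 against Tcf7 (SD, n = 3). These ratios all share the Axin2 counts, restate its lower level within a library and, like its fold change, support nothing.

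**Figure D4:**
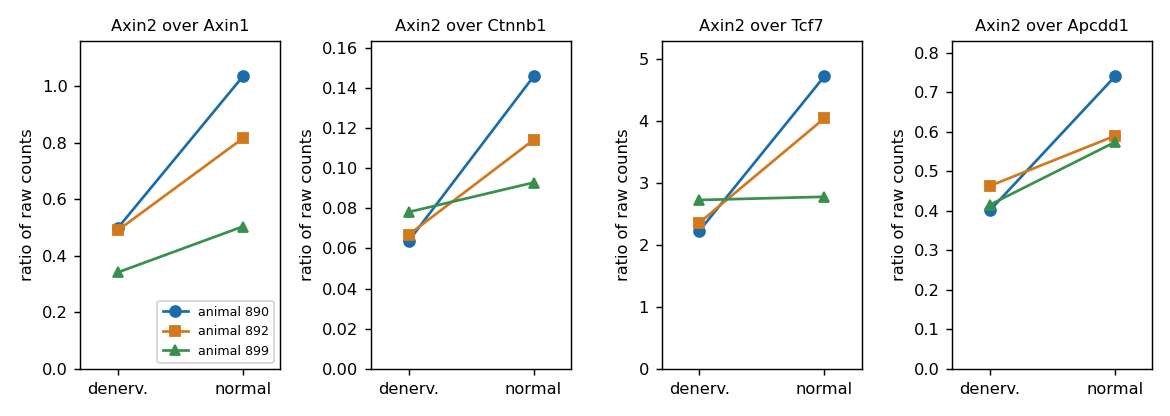
Raw Axin2 counts per raw count of Axin1, Ctnnb1, Tcf7 and Apcdd1 in the denervated (left) and normal (right) library of each animal. In the 4 panels every denervated value lies below every normal one, and on the log2 scale the smallest difference between sides is in animal 899 for Axin1, Ctnnb1 and Tcf7 and in animal 892 for Apcdd1.

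The quantification method hardly moved the counts of Axin2. The authors' estimated counts were 98.0% to 98.8% of the raw counts of Axin2 in the 6 libraries, against 91.0% to 98.1% for Tcf7 and 79.4% to 101% for Nkd2. The length that the authors' files give for Axin2 was 4258 bases in every library, and that of Tcf7, an average over its transcripts, lay between 2588 and 2611 bases with overlapping sides. The exons of an antisense gene, Gm11670, overlap Axin2 in GENCODE, and the count matrix has no row under that symbol. The library kit keeps strand, but the strand setting of the counting is not given in the sources used here.

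Other genes of the pathway, grouped by role, held 6 calls among 117 tested (5.13%, against 3.46% of all genes), of which 5 were higher and 1 was lower after denervation. Scaled by library totals there were also 6, 4 higher and 2 lower, where 2.36% of all genes were called. With no filter on low counts there were 17, 10 higher and 7 lower, where 5.7% of all genes were called. Without animal 899 there were 19, 10 higher and 9 lower, where 7.74% of all genes were called. Without animal 892 there were 3, all higher, where 2.01% of all genes were called. Without the block edgeR called 0, as over all genes, with 22 at an unadjusted p below 0.05. DESeq2 with the block called 9, where 7.91% of all genes given an adjusted p were called. Among 16 tested genes of beta-catenin turnover none passed (2 at an unadjusted p below 0.05, 0 called by DESeq2). The nearest were Ppp2ca, a phosphatase subunit, at 307 ± 5.14 CPM in denervated and 265 ± 21.4 CPM in normal cells (adjusted p = 0.166), and the kinase gene Gsk3a, at 121 ± 5.28 CPM in denervated and 105 ± 10.2 CPM in normal cells (adjusted p = 0.188), both in edgeR over n = 3 a side. Both were called without animal 899, and the median log2 fold change of this group was 0.08.

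Among 19 tested receptors and Dishevelled genes none passed (2 at an unadjusted p below 0.05, and 0 in DESeq2 with and 1 without the block). The Wnt receptor gene Fzd10 had 49.7, 52.2 and 61.5 CPM in the denervated and 82.6, 70.8 and 63.5 CPM in the normal libraries, with no overlap (log2 fold change −0.40 ± 0.11 SE, adjusted p = 0.0634, edgeR). Fzd7 stood at 59.1 ± 19.5 CPM in denervated and 67.8 ± 6.74 CPM in normal cells (SD, n = 3), and both were called lower without animal 899. Of 17 tested ligand, R-spondin and secretion genes, Wnt3a passed, at 10.97, 14.7 and 15.1 CPM in the denervated and 18.8, 20.4 and 19.9 CPM in the normal libraries. Wnt3a was lower in 3 of 3 animals, as were 21.4% of all tested genes. Its log2 fold change was −0.54 ± 0.14 SE (adjusted p = 0.0432, edgeR). The adjusted p of Wnt3a was 0.123 without animal 890 and 0.139 without animal 892, while DESeq2 gave it none. In this group 14 of 17 log2 fold changes were negative, with a median of −0.16. None of 9 tested antagonists passed (2 at an unadjusted p below 0.05, Kremen2 and Trabd2b, to which DESeq2 gave no adjusted p). Kremen2, a Dickkopf receptor, stood at 2.17 ± 1.20 CPM in denervated and 4.26 ± 0.636 CPM in normal cells and Trabd2b, a protease that inactivates Wnt, stood at 7.93 ± 1.71 CPM in denervated and 5.28 ± 0.369 CPM in normal cells (SD, n = 3). In edgeR, Kremen2 was called lower when genes of low counts were kept (adjusted p = 0.00927) and when animal 890 was left out (0.0105).

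Of 22 tested nuclear partners, the Groucho corepressor gene Tle4 passed, at 204, 180 and 205 CPM in the denervated and 146, 136 and 172 CPM in the normal libraries (log2 fold change 0.38 ± 0.08 SE, adjusted p = 0.0188, edgeR). Its adjusted p without animal 892 was 0.0657. Of 27 tested genes described elsewhere as Wnt targets, 16 had a negative and 11 a positive log2 fold change, with a median of −0.05. The 3 that passed were higher: the AP-1 subunit gene Fosl1 (log2 fold change 0.63 ± 0.09 SE), the hyaluronan receptor gene Cd44 (0.55 ± 0.11 SE) and the transcription factor gene Sox9 (0.35 ± 0.09 SE). Without animal 890 the adjusted p of Cd44 was 0.0585, and that of Sox9 was 0.0726 without animal 892 and 0.108 without animal 899. Sox9 also lost its call when scaled by library totals (adjusted p = 0.0942, edgeR) and in DESeq2 with (0.0513) and without (0.285) the block. Other targets were called lower under some alternatives. Tnfrsf19, a TNF receptor family gene, had a log2 fold change of −0.27 (adjusted p = 0.0721, edgeR), and its adjusted p was 0.0394 when scaled by library totals, 0.0223 in DESeq2 with the block, 0.0293 with no filter on low counts and 0.0239 without animal 899. Cyr61, Id2 and Rnf43 were called lower with no filter and without animal 899. Plaur, another of the 27, went the other way and was called higher in both of these fits. Its CPM was 8.18, 5.16 and 3.67 in the denervated and 3.49, 3.18 and 3.14 in the normal libraries. With all animals and the filter its log2 fold change was 0.75 ± 0.26 SE (adjusted p = 0.139, edgeR). Picked after their values were seen, the ubiquitin ligase genes Rnf43 and Znrf3, which like Axin2 are induced by Wnt and act against it, did not pass with all animals and the filter on low counts. Rnf43 had 52.5, 57.8 and 70.8 CPM in the denervated and 84.0, 79.2 and 71.9 CPM in the normal libraries (log2 fold change −0.38 ± 0.11 SE, adjusted p = 0.0719, edgeR). Znrf3 stood at 107 ± 8.74 CPM in denervated and 116 ± 11.6 CPM in normal cells.

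Of 7 tested genes of the cadherin complex, the other place where beta-catenin is held, Vcl (vinculin) passed at a log2 fold change of 0.48 ± 0.09 SE (adjusted p = 0.0121, edgeR). All 7 log2 fold changes in this group were positive in that fit, with a median of 0.29. That of Pkp1 was 0.013, and it was −0.049 when scaled by library totals. DESeq2 with the block called 4 of the group, where 7.91% of all genes given an adjusted p were called.

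**Figure D5:**
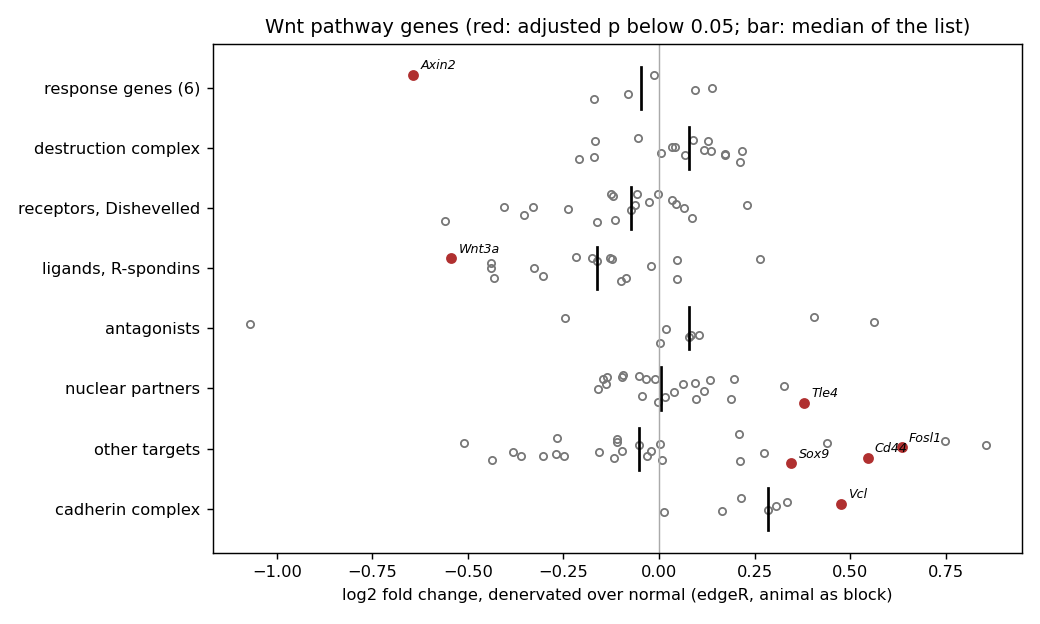
Log2 fold change, denervated over normal, of the 6 tested response genes and of 117 other tested Wnt pathway genes by role, with called genes in red and the median of each group as a bar. Axin2 at −0.64 and Wnt3a at −0.54 are the called genes left of 0, and Tle4, Sox9, Cd44, Fosl1 and Vcl those right of it.

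Likeness to Axin2 was measured as Pearson's r of log2 CPM over the 6 libraries, across 9765 other tested genes averaging 5 CPM or more, and is given as a description. The 6 points share their libraries and animals, and 227 genes had an r of at least 0.9. The most alike were Phc3, a Polycomb gene (0.996), Tmem181b-ps (0.993), Krba1 (0.991), Hs1bp3 (0.991) and the retinol dehydrogenase gene Rdh14 (0.990). Tmem181b-ps is a pseudogene by name, and reads of its relatives may be counted with it. Phc3 had 89.4, 92.8 and 97.6 CPM in the denervated and 121, 112 and 103 CPM in the normal libraries, the same order of the 6 libraries as Axin2. The most opposite were Akirin1 (−0.996), the clathrin assembly gene Picalm (−0.995), Map7d1 (−0.995), Bahd1 (−0.993) and Actr3, a subunit of the Arp2/3 complex (−0.989). Of the other members, Apcdd1 had an r of 0.55, Tcf7 of −0.22, Axin1 of −0.24 and Ctnnb1 of −0.89 with Axin2. Fzd10, with an r of 0.98, ranked 15 from the top.

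Markers of other cell types were summed beside these results. T cells express Lef1 and Tcf7, and 11 T cell markers summed to between 98.6 and 167 CPM in the denervated and between 110 and 134 CPM in the normal libraries. Of that sum Thy1 held 89.1 CPM or more in every library, Cd3e did not exceed 3.05 CPM and Cd8a was at 0. The hair matrix is a site of strong Wnt response, and its 17 markers summed to between 445 and 537 CPM in the denervated and between 476 and 519 CPM in the normal libraries, of which Gata3 held 421 CPM or more, while Krt34 and Krt85 were at 0. Of 11 fibroblast and dermal papilla markers, summing to between 1.72 and 6.12 CPM in the denervated and between 3.72 and 7.64 CPM in the normal libraries, 2 were tested (Col1a2 and Hhip) and neither passed. The 7 Schwann cell markers summed higher on the denervated side (266 to 313 CPM) than on the normal side (216 to 226 CPM), where Mbp and Pmp22 passed and Sox10 did not exceed 0.0467 CPM. The 7 melanocyte markers summed to between 12.6 and 24.3 CPM in the denervated and between 17.0 and 20.0 CPM in the normal libraries. Of that sum Mitf held 11.4 CPM or more in every library, and Mlana was at 0. The 5 endothelial markers summed to at most 1.31 CPM in the denervated and 1.57 CPM in the normal libraries, with Emcn and Cdh5 at 0. The part of these sums in the Axin2 result was not tested.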

How the data were processed

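Sample titles gave the side and the animal of each library. The authors deposited raw whole-number counts per gene, estimated counts (from Salmon, per the file headers), TPM and lengths (signal), and a table of log2 fold changes, p-values and mean normalised signal, with standard errors and test statistics as scores. Per the submitters' processing notes the tools were STAR 2.6.1a together with Salmon 0.11.2, the build mm10. Annotation and counter: not given in the sources used here. Of the row names, 26 are spreadsheet dates and were not named.

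Denervated and normal libraries were compared in edgeR 4.0.16 (quasi-likelihood F-test, under R 4.3.3) on all rows with TMM factors, filterByExpr (minimum count 10, minimum total 15) and the animal as block, with p-values adjusted by Benjamini-Hochberg over the 12310 tested genes and called below 0.05. Standard errors were obtained by dividing the absolute log2 fold change by the root of the F statistic. Each mouse gave both libraries of its number, as the labels' protocols say, so the numbers pair the libraries, and deviations from the group means correlated at 0.356, 0.361 and 0.443 within animals. Whether the 3 animals shared a litter or day is not stated. Of the fits, only the blocked edgeR fit was run on simulated counts, drawn with the same dispersion for every gene, and the outcome is not given here. Log2 CPM used a prior count of 2. Members, lists and the rule for named genes (called genes of each list, otherwise the 2 with the smallest p, and the 5 most and least like Axin2 among genes of at least 5 CPM, leaving out predicted genes) were chosen with earlier results of these data known. Alternatives used DESeq2 1.42.0 and limma 3.58.1 (log2(TPM + 1) and log2(TPM + 0.1), mean TPM of at least 1). Others used other scalings and filters, estimated counts rounded to whole numbers, or left each animal out. Adding 1 to the TPM understates fold changes of low genes, and that of Nkd2 was −0.16 there and −0.33 with 0.1 added. Coordinates are from GENCODE M21 and promoters from RefSeq (GRCm38.p6), from which windows for 7 of the 10 members were used. Windows for Axin1, Notum and Apcdd1 were not used here.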

Additional observations from a re-analysis of the deposited data

How the results depend on the processing

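Axin2 was lower on the denervated side under all 13 alternatives and called in 10 of them. Its call was lost without the replicate block (−0.66, adjusted p = 0.146, edgeR) and in limma on log2(TPM + 1) (−0.64, adjusted p = 0.154) and on log2(TPM + 0.1) (−0.66, adjusted p = 0.148). Those fits called 0, 0 and 0 of the members, with 1 at an unadjusted p below 0.05 in each, and 0, 1 and 1 of all genes. DESeq2 called 365 genes without and 493 with the block, Axin2 among them in both. With no filter on low counts 987 genes were called, 17 of them in the other pathway lists. Scaled by library totals 290 were called, 59.3% of them higher rather than 83.3%. Leaving out each animal gave 248 (animal 892) to 976 (animal 899) calls, 1 member called each time, 3 (animal 892) to 19 (animal 899) calls in the other pathway lists, and −0.81 to −0.46 for Axin2. In these fits the log2 fold changes of 3 members that did not pass changed sign, with ranges of −0.45 to 0.19 for Nkd2, −0.082 to 0.11 for Tcf7 and −0.20 to 0.038 for Apcdd1. Without the block edgeR called 0 genes of the other pathway lists. DESeq2 without the block called 8 of them, where 6.19% of all genes given an adjusted p were called. The cause of these changes was not tested. Depth limits Lef1, Nkd1, Notum and Sp5, whose counts lie near the floor.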
